A study of Mus musculus with 12 samples.

Results

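The p53 gene Trp53 and 9 genes that the p53 protein switches on were followed across cultured mouse embryonic fibroblasts that differed in Rsg1 genotype and in folic acid. The 10 genes (Trp53, Mdm2, Cdkn1a, Ccng1, Btg2, Phlda3, Bax, Bbc3, Trp53inp1 and Sesn1) were taken by symbol from 24279 genes in the deposited tables. All 10 were present, and all 10 were among the 15186 genes with enough counts to be tested. Polyadenylated RNA was sequenced from primary fibroblasts of embryos at embryonic day 12.5, with 3 libraries in each of 4 groups. Moderate wild type and moderate mutant cells came from F3 mice kept on 2 ppm folic acid and grew in DMEM with 225 ng/mL folic acid. Fortified wild type and fortified mutant cells came from F3 mice kept on 10 ppm and grew with 3600 ng/mL. Mutant cells were homozygous for the altered Rsg1 allele (genotype Rsg1L3P/L3P), and the other cells were wild type. The Rsg1 protein resembles small GTPases and belongs to CPLANE, a set of proteins that helps to build primary cilia. The effect of the diet and that of the medium cannot be told apart, since both differed between the same groups, and "fortified" below means both. Whether libraries of 1 group stem from separate embryos is not stated, so the p-values measure the spread between these libraries, which may be technical.

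The p53 protein is a transcription factor that is kept scarce in unstressed cells, because Mdm2 marks it for degradation. DNA damage, ribosome stress or nucleotide shortage frees it, and it then switches on genes that stop the cell cycle, repair damage or lead to cell death. Since p53 is controlled mainly as a protein, the mRNA of its targets is the usual RNA readout of its activity. Mdm2 is itself a target, so a rise in p53 activity also raises its own brake. In cultured fibroblasts p53 is known for the arrest that follows stress and prolonged culture, which runs largely through p21, the product of Cdkn1a. Folate supplies one-carbon units for nucleotide synthesis, and nucleotide supply is one of the conditions that p53 senses.

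The p53 protein binds DNA as a tetramer, and its site is a pair of 10-base half-sites each with a core of C, a pair of bases that are A or T, and G. RefSeq promoter windows of GRCm38.p6 (mm10), from 250 bases before to 50 bases after a gene's start, were found for 9 of the 10 genes, which have 13 windows between them. Both strands were searched for the published half-site consensus. No window was found for Trp53inp1, and at least 1 exact half-site lay in a window of 6 of the 9 other genes. Counted by window, 6 of their 13 windows held one, beside 8.36% of the 32851 windows searched, from which 1 chromosome was left out. The stretches show where the half-site consensus was matched, and each runs 5′ to 3′ on the gene's strand. Capitals mark exact half-sites and the best-matching pair of a window where it has at most 2 mismatches, so other near matches stay in lower case.
Cdkn1a: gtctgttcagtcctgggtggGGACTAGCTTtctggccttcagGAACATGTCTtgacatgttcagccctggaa
Mdm2: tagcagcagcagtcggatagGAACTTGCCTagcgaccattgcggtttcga
Trp53: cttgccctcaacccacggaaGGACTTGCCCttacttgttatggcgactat
Ccng1: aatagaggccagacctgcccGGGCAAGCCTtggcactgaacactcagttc
Bax: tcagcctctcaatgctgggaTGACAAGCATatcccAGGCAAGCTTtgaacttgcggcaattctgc
Sesn1: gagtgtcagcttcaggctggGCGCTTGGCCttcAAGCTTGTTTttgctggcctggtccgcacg
The Cdkn1a stretch (chr17:29090886-29090957, plus strand) ends 22 bases before the upstream of 2 listed starts of the gene. It was the one member sequence with a pair of exact half-sites, with 12 bases between them, and such a pair with a gap of at most 13 bases occurred in 0.0731% of the windows searched. The bases that directly follow its downstream half-site, tgacatgttc, differ from the consensus at the first base only and are left in lower case. The Bax stretch (chr7:45467070-45467134, minus strand) and the Sesn1 stretch (chr10:41887233-41887295, plus strand, before the downstream of 2 listed starts) held pairs with 2 mismatches in all, at gaps of 5 and 3 bases. Pairs with at most 2 mismatches occurred in 2.12% of the windows searched. Mdm2 (chr10:117710915-117710964, minus strand), Trp53 (chr11:69580264-69580313, plus strand) and Ccng1 (chr11:40755442-40755491, minus strand) showed a single exact half-site each. No exact half-site lay in the windows of Bbc3, Btg2 or Phlda3, and such letters are a description, not evidence of binding; known sites of several of these genes lie outside these windows.

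Depth ran from 39339190 to 48475963 estimated counts per library. All 10 fibroblast markers examined were present (summed level 12860 to 43400 CPM), while 3 of 5 epithelial markers (Cdh1, Epcam and Esrp1) stayed under 1 CPM in every library and the 5 summed to 7.09 to 36.04 CPM. Summed markers of cartilage ran from 332.3 to 1487 CPM, those of endothelium from 10.35 to 53.13 and those of macrophages and blood from 10.48 to 73.52. Those of skeletal muscle ran from 746.5 to 4064 CPM and those of neurons from 90.47 to 462.8. Moderate wild type 1 and fortified mutant 2 and 3 lay at one end of the first principal component (30.2% of variance, scores of 68, 48.1 and 57.5) and had the highest neuron and skeletal muscle marker scores. Moderate wild type 2 (-68.6) and 3 (-53.7) lay as far out at the other end. The first 3 were chosen to be left out together with earlier results of these data known, and results that depend on them are given with and without them. Leaving them out kept fortified mutant 1 alone in its group, so only effect sizes are given from that fit. All 6 mutant libraries carried Xist, whereas 2 of 6 wild type libraries did, 3 carried Y-linked transcripts and 1 carried neither, so sex and genotype are partly confounded. In such bulk RNA, fewer cells of a type and less RNA per cell cannot be told apart.

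All 10 genes were expressed in every library, in cultures for which no stress treatment is named. In TPM, a scale per transcript length that allows genes to be compared, Cdkn1a was the most abundant at a mean of 601 over the 12 libraries, above 98.6% of tested genes. It was followed by Ccng1 (449), Bax (398), Phlda3 (266), Trp53 (188), Mdm2 (151), Btg2 (62.2), Trp53inp1 (48.2), Bbc3 (27.3) and Sesn1 (8.85). Each of Bax over Phlda3, Phlda3 over Trp53, Mdm2 over Btg2, Trp53inp1 over Bbc3 and Bbc3 over Sesn1 held in all 12 libraries. The other neighbours changed places: Cdkn1a exceeded Ccng1 in 10 of 12 libraries, Ccng1 exceeded Bax in 8, Trp53 exceeded Mdm2 in 10, and Btg2 exceeded Trp53inp1 in 11. Across the 12 libraries the coefficient of variation of CPM was smallest for Phlda3 (12.7%) and largest for Sesn1 (37.0%), beside a median of 28.6% over all tested genes.

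**Figure D1:**
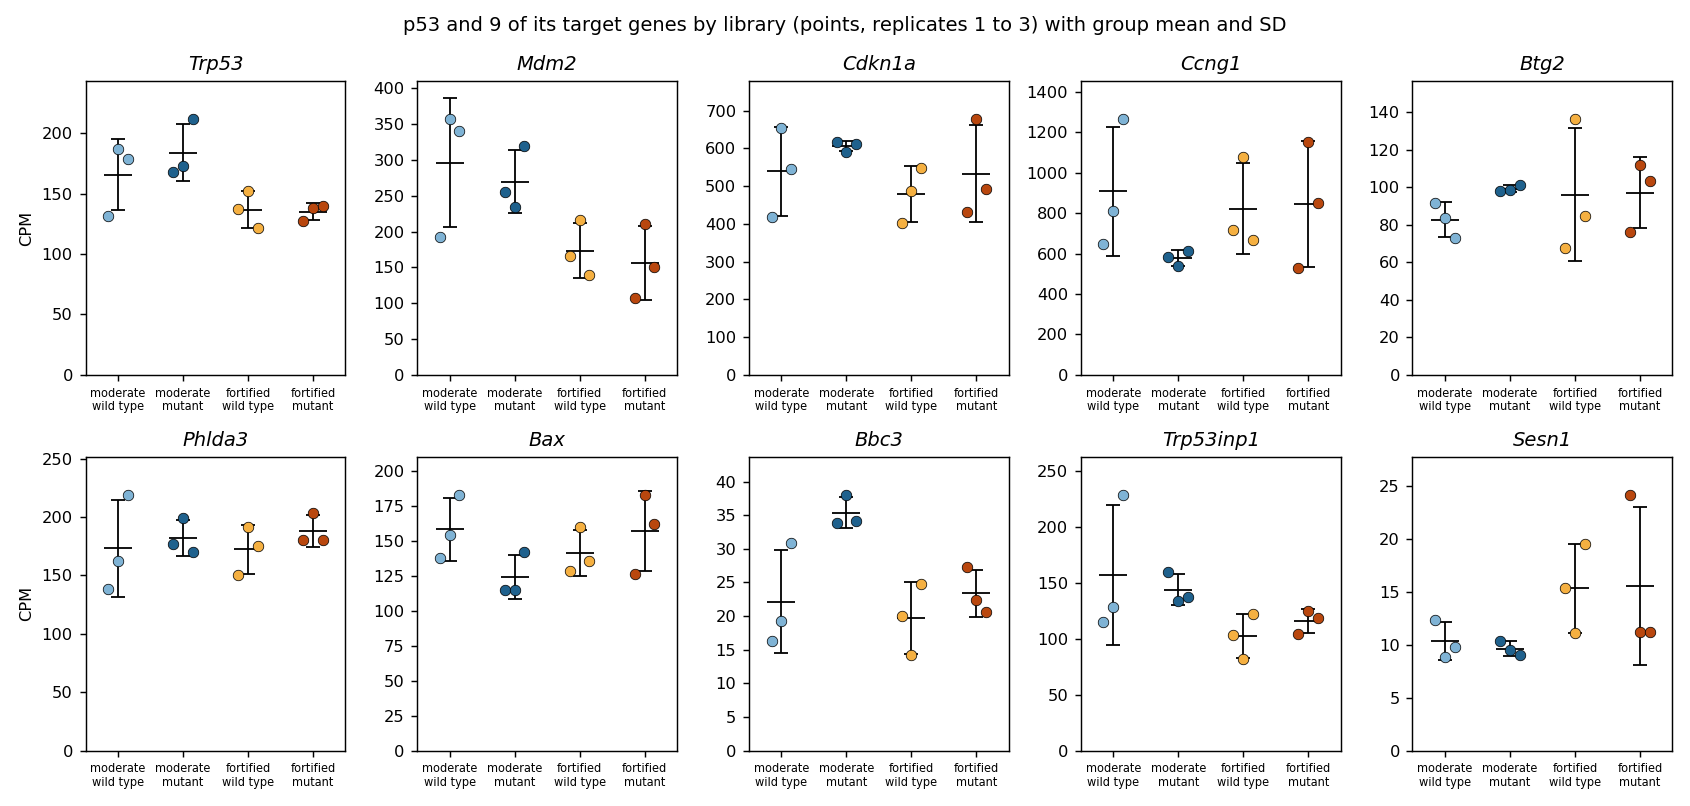
CPM (counts per 1000000, TMM-scaled; vertical axes from 0) of Trp53 and the 9 target genes in each of the 12 libraries, with group means and SDs (n = 3); points in a group are replicates 1 to 3 from left to right. Mdm2 lies between 193 and 357 in the moderate libraries and between 108 and 216 in the fortified ones, while Sesn1 reaches its 3 highest levels in fortified libraries.

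For folic acid 2 of the 10 genes passed the test, and for genotype 0 of 10 did: Trp53 and Mdm2 were both lower in fortified cells. Averaged over genotypes, Mdm2 fell by 0.78 on the log2 scale (SE 0.20, 1.72-fold, adjusted p = 0.0245) and Trp53 fell by 0.36 (SE 0.11, 1.29-fold, adjusted p = 0.0481) by edgeR's quasi-likelihood test with Benjamini-Hochberg adjustment over all 15186 genes. The same rule called 17.8% of all tested genes in this comparison, so 2 of 10 is near the background. In 6.37% of tested genes the 6 libraries of one folic acid level did not overlap the 6 of the other, and 0 of the 10 genes had this.

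Trp53 encodes p53 itself (chromosome 11, 69580359 to 69591873, plus strand of mm10). Its level was 168, 173 and 211 CPM in moderate mutant cells and 132, 186 and 179 in moderate wild type cells. In fortified cells it was 127, 138 and 140 CPM in the mutant and 137, 152 and 121 in the wild type. Every moderate library except wild type 1 exceeded every fortified one. The order of the group means was moderate mutant (184 ± 23.9 SD), moderate wild type (166 ± 29.6), fortified wild type (137 ± 15.4) and fortified mutant (135 ± 6.78), each n = 3, and each neighbour overlapped the next. Within genotypes the log2 difference between fortified and moderate cells was -0.45 (SE 0.16, adjusted p = 0.111, edgeR) in mutant cells, whose libraries did not overlap, and -0.28 (SE 0.16, adjusted p = 0.357) in wild type cells. The averaged call was lost on leaving out any of 10 of the 12 libraries (adjusted p = 0.0647 to 0.118, edgeR), and it remained without moderate wild type 1 (0.0114) or fortified wild type 2 (0.0499). Its direction stayed the same in each of these fits, at -0.43 to -0.31.

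Mdm2, the ubiquitin ligase that degrades p53 and a p53 target (chromosome 10, 117688875 to 117710758, minus strand), showed the larger difference. Moderate wild type libraries held 193, 357 and 340 CPM and moderate mutant libraries 255, 235 and 319. Fortified wild type libraries held 165, 216 and 140 CPM, and fortified mutant libraries 108, 211 and 150. The 5 highest values were moderate, and moderate wild type 1 was the one moderate library inside the fortified range. Group means ran in the order moderate wild type (297 ± 90.4 SD), moderate mutant (270 ± 44.2), fortified wild type (174 ± 38.97) and fortified mutant (156 ± 51.6), and the mutant groups did not overlap between folic acid levels. The log2 difference between fortified and moderate cells was -0.77 (SE 0.29, adjusted p = 0.174, edgeR) in wild type and -0.79 (SE 0.29, adjusted p = 0.112) in mutant cells. The interaction was -0.01 with a 95% interval of -0.90 to 0.87, which leaves room for a sizeable difference between genotypes. The averaged call ended without moderate mutant 3 (adjusted p = 0.0642), fortified wild type 1 (0.0515) or fortified wild type 3 (0.0633, edgeR). Without the 3 libraries that stood apart, the averaged difference was -1.18, at -0.998 in wild type and -1.35 in mutant cells. That fit kept fortified mutant 1 as the only fortified mutant library, and its 108 CPM was the lowest level of the 12 libraries.

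Fibroblast identity markers and cell cycle genes also differed between folic acid levels when averaged over genotypes. Of 10 fibroblast markers 9 were higher in fortified cells averaged over genotypes, 5 of them past the test, with a median log2 difference of 0.97. Of all tested genes 17.8% passed in that comparison, 8.9% as higher. Within wild type cells 0 of the 10 markers passed (0.0263% of tested genes), with a median of 1.49. Within mutant cells 0 of 10 passed as well (6.93% of tested genes), with a median of 0.33. Their summed level in wild type cells was 12860 to 25310 CPM at moderate and 33650 to 43400 at fortified folic acid, and in mutant cells it was 22140 to 23630 and 20190 to 26620. None was at 0 in a whole group, and their part in the Trp53 and Mdm2 differences was not tested.

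Of the growth arrest targets, Cdkn1a encodes p21, the inhibitor of cyclin-dependent kinases that carries most of the p53 arrest. Its level was 617.9, 591 and 611 CPM in moderate mutant, 418, 654 and 545 in moderate wild type, 431, 677 and 492 in fortified mutant and 402, 487 and 549 in fortified wild type cells. The groups overlapped in each of the 4 comparisons, and moderate mutant libraries stood closest together (607 ± 14.2 SD, against 539 ± 118 in moderate wild type). The folic acid difference averaged over genotypes was -0.18 (SE 0.15, adjusted p = 0.438, edgeR), with a 95% interval from -0.51 to 0.15. Cdkn1a, unlike Mdm2, therefore did not pass, but the difference between these genes was not tested.

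Ccng1, which encodes cyclin G1, a partner of phosphatase PP2A in the Mdm2 feedback, had the widest range of the arrest genes. Its level was 585, 537 and 613 CPM in moderate mutant and 648, 810 and 1264 in moderate wild type cells, groups that did not overlap. In fortified cells it was 529, 1154 and 849 CPM in the mutant and 715, 1080 and 668 in the wild type. The log2 difference between moderate mutant and wild type was -0.65 (SE 0.31, unadjusted p = 0.0600, adjusted p = 0.65, edgeR), and it was 0.04 between the fortified genotypes. The interaction, 0.69 with a 95% interval from -0.27 to 1.65, did not pass (adjusted p = 0.723).

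Btg2, an antiproliferative cofactor of mRNA deadenylation, was 98.1, 98.6 and 101 CPM in moderate mutant cells, all above moderate wild type at 91.7, 83.6 and 73.0. In fortified cells the spread was wider, with 76.0, 112 and 103 CPM in the mutant and 67.7, 136 and 84.4 in the wild type. Phlda3, a repressor of Akt signalling, varied least of all: its groups averaged 172 to 188 CPM, and its log2 differences in the 4 comparisons between groups ran from -0.01 to 0.13. Neither gene passed in any comparison.

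Bbc3 and Bax carry the death arm. Bbc3 encodes Puma, a BH3-only protein that frees Bax, and Bax opens the outer mitochondrial membrane. Bbc3 was 33.8, 38.0 and 34.2 CPM in moderate mutant cells and 16.3, 19.3 and 30.8 in moderate wild type cells. It was 27.3, 22.3 and 20.6 CPM in fortified mutant and 20.005, 14.2 and 24.8 in fortified wild type cells. The 3 moderate mutant libraries were the 3 highest of the 12. Against moderate wild type the log2 difference was 0.68 (SE 0.26, 1.60-fold, unadjusted p = 0.0223, adjusted p = 0.605, edgeR), and fortified minus moderate mutant cells gave a log2 difference of -0.59 (SE 0.26, adjusted p = 0.171), with fortified mutant cells the lower ones. Averaged over folic acid levels the genotype difference was 0.46 (SE 0.18, unadjusted p = 0.0258, adjusted p = 0.986). It therefore did not pass after correction for the number of genes.

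Bax followed another order. Its level was 115, 115 and 142 CPM in moderate mutant, 138, 154 and 183 in moderate wild type, 126, 182 and 162 in fortified mutant and 129, 160 and 135 in fortified wild type cells. Every pair of groups overlapped. The log2 difference between moderate mutant and wild type was -0.35 (SE 0.17, adjusted p = 0.656) and that between fortified and moderate mutant cells was 0.34 (SE 0.17, adjusted p = 0.245, edgeR), a difference that was -0.01 without the 3 libraries that stood apart and with TPM in place of counts. Puma and Bax mRNA thus had opposite signs in both of these comparisons by edgeR on all 12 libraries, neither past the threshold. In mutant cells the sign of Bax did not hold in the other fits just named. Bax overlaps the protein-coding gene Gm45808 on the same strand, which has no row of its own in the table used.

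Trp53inp1 and Sesn1 act in stress handling: the first is a nuclear body protein that promotes p53 phosphorylation and autophagy, the second a sestrin that restrains mTORC1 and limits peroxides. Trp53inp1 was 160, 134 and 138 CPM in moderate mutant and 115, 128 and 229 in moderate wild type cells. Its fortified values were 104, 125 and 119 CPM in the mutant and 104, 82.4 and 122 in the wild type. Mutant libraries did not overlap between folic acid levels, whereas wild type libraries did and moderate wild type 3 stood highest. The averaged log2 difference of -0.46 (SE 0.17) missed the threshold by edgeR (adjusted p = 0.0795). It passed by DESeq2 (0.0458) and, by edgeR, without moderate wild type 1 (0.0257).

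Sesn1 had the largest difference towards fortified cells of the 10 genes when averaged over genotypes. It was 10.4, 9.5 and 9.1 CPM in moderate mutant, 12.3, 8.8 and 9.8 in moderate wild type, 24.1, 11.2 and 11.2 in fortified mutant and 15.3, 11.2 and 19.5 in fortified wild type cells. Fortified mutant 1 was highest, and only moderate wild type 1 among the moderate libraries exceeded the lowest fortified values. The averaged log2 difference was 0.63 (SE 0.22, adjusted p = 0.0693, edgeR). It passed without moderate wild type 1 (0.70, adjusted p = 0.0462, edgeR) and by DESeq2 (adjusted p = 0.033). Without the 3 libraries that stood apart it was 1.01, in a fit whose only fortified mutant library was the highest one, fortified mutant 1. Sesn1 overlaps the unclassified transcript 9930024M15Rik on the same strand, which has no row of its own in the table used.

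**Figure D2:**
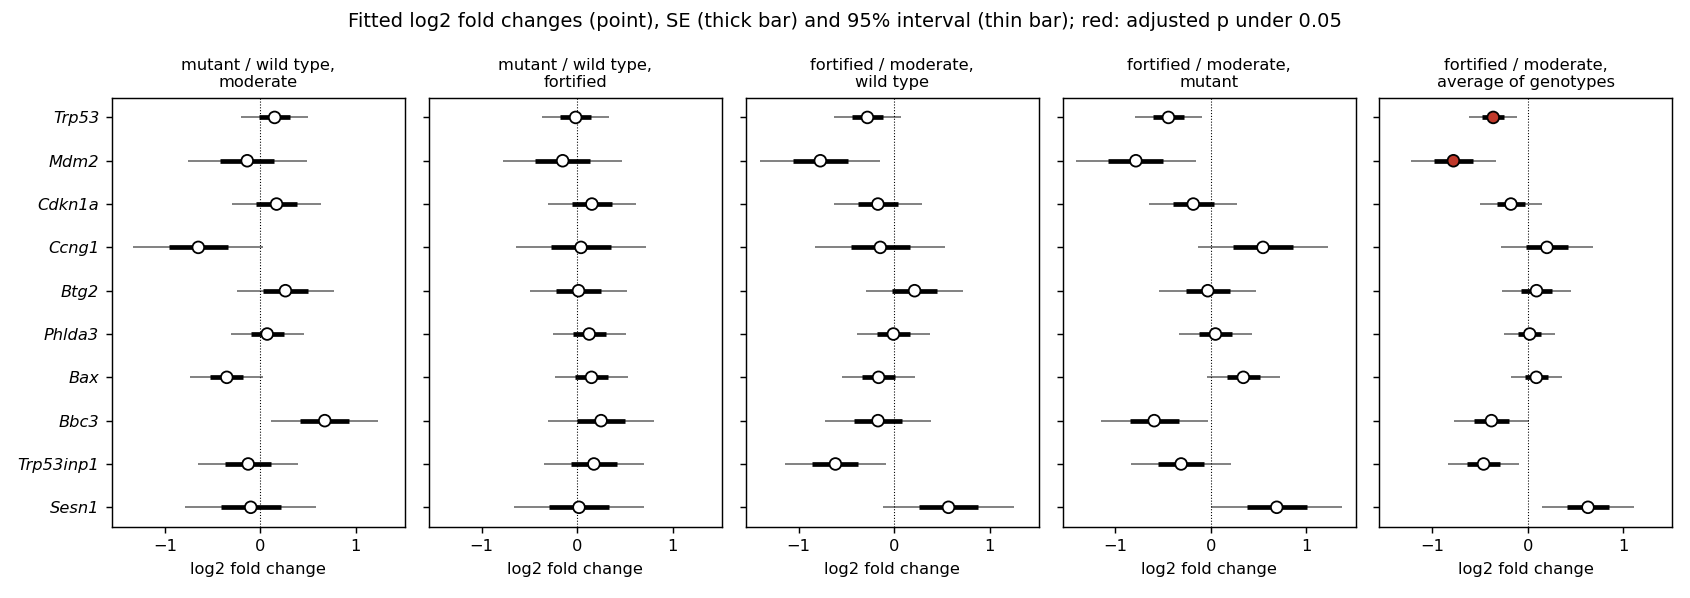
Fitted log2 fold changes of the 10 genes (horizontal axes, edgeR) in the 4 comparisons between groups and for folic acid averaged over genotypes, with SE (thick bars) and 95% interval (thin bars); red points passed the adjusted threshold of 0.05. Red points appear in the last panel alone, for Trp53 (-0.36) and Mdm2 (-0.78), and between fortified genotypes all 10 values lie from -0.15 to 0.25.

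Genotype alone gave no call among these genes. Between moderate mutant and wild type cells 0 of 10 passed (0% of all tested genes, adjusted). By edgeR 1 of 10 had an unadjusted p under 0.05 (Bbc3), against 7.87% of tested genes. The log2 differences ran from -0.65 (Ccng1) to 0.68 (Bbc3) with 5 positive. In that comparison 3 of the 10 had groups that did not overlap, Bbc3 and Btg2 higher and Ccng1 lower in the mutant, against 13% of all tested genes. Between fortified mutant and wild type cells 0 of 10 passed (0% of tested genes). There 0 of 10 had an unadjusted p under 0.05 (3.29% of tested genes), and 0 of 10 had groups that did not overlap (10.3%). Averaged over folic acid levels 0 of 10 passed (0% of tested genes), with 1 of 10 under an unadjusted p of 0.05 (Bbc3), against 4.64%. All 6 mutant libraries were separated from all 6 wild type libraries by 0 of 10 (0.0988% of tested genes). DESeq2 called 0 of the 10 in each of these comparisons as well.

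Within wild type cells the fortified medium and diet gave 0 of 10 calls (0.0263% of tested genes), 8 of 10 negative differences and 0 of 10 genes whose groups did not overlap (20.6% of tested genes). Mdm2 and Trp53inp1 had an unadjusted p under 0.05 there by edgeR, against 19.6% of tested genes, and DESeq2 also called 0 of 10. Within mutant cells 0 of 10 passed by edgeR (6.93% of tested genes) or DESeq2. By edgeR 4 of 10 had an unadjusted p under 0.05 there, against 25.6% of tested genes. Limma on log2(TPM + 1) called 3 of the 10 there, beside 2814 of the 15186 tested genes. In mutant cells 5 of 10 had groups that did not overlap, against 38.2% of tested genes. Those 5 were Trp53, Mdm2, Bbc3 and Trp53inp1, lower in fortified cells, and Sesn1, higher. For the interaction of genotype and folic acid 0 of 10 passed by edgeR (0% of tested genes) or DESeq2. There 0 of 10 had an unadjusted p under 0.05 by edgeR (6.68% of tested genes). Bax was nearest at 0.50 (SE 0.25, unadjusted p = 0.0651, adjusted p = 0.708, edgeR). The median log2 difference of the 10 for folic acid averaged over genotypes was -0.08, beside 0.00 for all tested genes, and 5 of the 10 were positive.

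Fits by limma on TPM change both the scale and the test. With log2(TPM + 1) in place of TMM-scaled counts, the median of all genes for folic acid averaged over genotypes was -0.15, and 15.7% of calls were higher in fortified cells against 50.1% by edgeR. On that scale 5 of the 10 passed by limma, all lower in fortified cells: Trp53, Mdm2, Cdkn1a (-0.41, adjusted p = 0.0461), Trp53inp1 and Bbc3 (-0.58, adjusted p = 0.0225). The same fit called 3741 of the 15186 tested genes in that comparison.

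**Figure D3:**
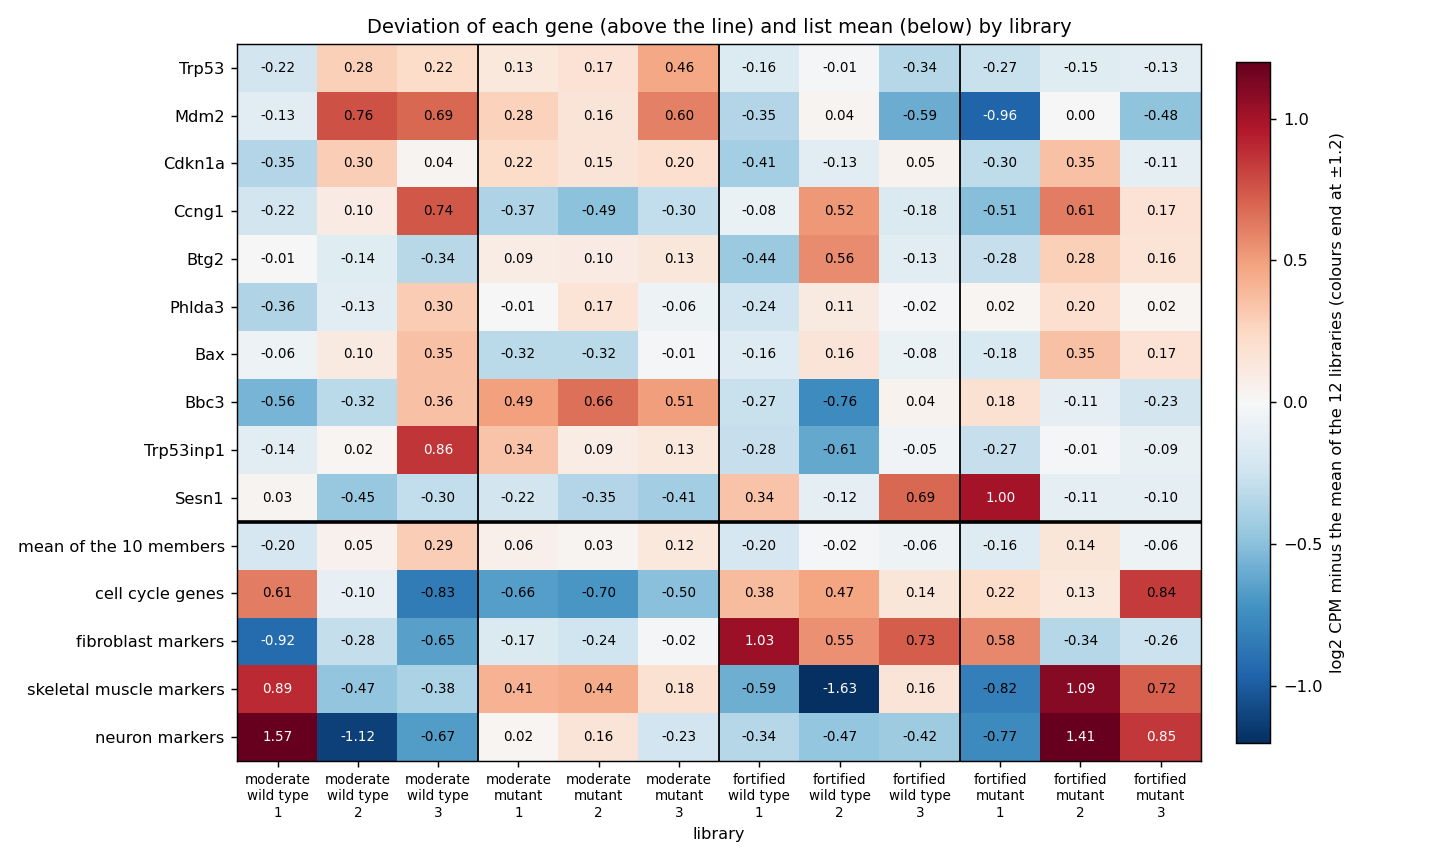
Colours and printed values give log2 CPM minus the mean of the 12 libraries for each of the 10 genes (rows above the line) and for the mean of gene lists (rows below) in each library (columns). The mean of the 10 genes is highest in moderate wild type 3 (0.29) and lowest in fortified wild type 1 (-0.20) and moderate wild type 1 (-0.20), so libraries of 1 group lie at both ends.

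The 10 genes did not vary as a single block. Over the 45 pairs the median Pearson correlation of log2 CPM across the 12 libraries was 0.22, and 0.41 after each group's mean was removed; the libraries share groups and marker differences, so these correlations are descriptions. Ccng1 and Bax stayed closest (r = 0.92, Spearman's rho = 0.90, 0.92 within groups, 0.84 without the 2 libraries farthest from the median of Ccng1). Trp53 and Mdm2 came next (r = 0.89, rho = 0.92, 0.85 within groups, 0.86 without the 2 farthest). Sesn1 ran opposite to Mdm2 (r = -0.88, rho = -0.94, -0.83 within groups, -0.80 without the 2 farthest). Across the whole table the patterns most like that of Cdkn1a were those of Tmem40 (r = 0.86), Cldn4 (0.85), Tmem54 (0.82), Kctd16 (0.81) and Gss (0.79), over 12 libraries. The patterns most like the mean of the 10 genes were those of Gss (0.91), Fam104a (0.91), 2010204K13Rik (0.91), Rnf11 (0.90) and Slamf9 (0.90).

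Another 40 p53 targets, of which 39 could be tested, were read in the same way, and 8 passed for folic acid averaged over genotypes, 2 higher and 6 lower in fortified cells, a share near the 17.8% of all tested genes. Their median log2 difference was -0.10, beside 0.00 for all tested genes. Among arrest and signalling targets Gadd45a, a growth arrest and DNA damage response protein, fell by 2.38 (SE 0.54, 5.22-fold, adjusted p = 0.0148, edgeR). Its mean went from 122 ± 93.5 CPM (SD, n = 3) to 28.2 ± 9.78 in wild type cells and from 172 ± 51.4 to 27.4 ± 21 in mutant cells. Zmat3, an RNA-binding p53 target, fell by 0.49 (adjusted p = 0.0193), the receptor Epha2 fell by 0.92 (0.0408), and the phosphatase gene Ptprv was higher by 1.16 (0.0114). Rps27l, a ribosomal protein relative with near-identical copies, was 1.04 in mutant cells (adjusted p = 0.0704). Gadd45a and Ptprv passed in all 12 fits that left out 1 library, Zmat3 in 11 and Epha2 in 4.

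Among metabolic targets Sesn2, the stress-induced sestrin, fell by 0.96 (SE 0.23, adjusted p = 0.0173, edgeR), opposite in sign to its relative Sesn1. Sesn2 was also the one gene of the 39 past the test within mutant cells (-1.32, adjusted p = 0.0383), from 122 ± 18.2 CPM in moderate to 49.0 ± 10.2 in fortified cells. Tigar, which lowers glycolytic flux, fell by 0.59 (adjusted p = 0.0193), and Slc19a2, a thiamine transporter, fell by 0.69 (0.0206). Dcxr, a carbonyl reductase, was 0.65 in mutant cells (adjusted p = 0.0664). On leaving out 1 library the averaged calls held in all 12 fits for Sesn2, in 11 for Slc19a2 and in 10 for Tigar, and that of Sesn2 in mutant cells held in 3. Of the apoptosis targets 1 of 10 passed, Dram1, a lysosomal autophagy protein, higher by 1.05 (adjusted p = 0.0263), a call kept in 8 of the 12 fits without 1 library. Among the other apoptosis targets Eda2r had the smallest p in wild type cells (-0.87, adjusted p = 0.202), followed by Aen (-0.48, 0.29), and Fas was 0.72 in mutant cells (0.213). None of the 5 DNA repair targets passed. Polk was nearest for folic acid averaged over genotypes (-0.48, adjusted p = 0.0616, edgeR) and stood at -0.65 in fortified against moderate wild type cells. Ercc5 was at -0.31 in that wild type comparison, and Xpc and Rrm2b were at -0.35 (fortified against moderate mutant cells) and -0.26 (moderate mutant against wild type cells).

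Of 22 genes that regulate p53, 8 passed for folic acid averaged over genotypes, beside 17.8% of all tested genes. Ep300 (-0.82, adjusted p = 0.00603, edgeR) and Crebbp (-0.53, 0.0162), acetyltransferases and coactivators of p53, fell, as did the deacetylase gene Sirt1 (-0.66, 0.0111), the damage kinase gene Atm (-0.56, 0.0141) and the arginine methyltransferase gene Prmt5 (-0.41, 0.0219). Rpl11 (0.84, adjusted p = 0.00648) and Rpl5 (0.79, 0.00808), ribosomal proteins that bind Mdm2 when ribosome assembly is disturbed, rose, and so did Ppp1r13b (0.51, 0.0347), which steers p53 to death genes. Rpl5 and Rpl11 have near-identical copies elsewhere in the genome, so their counts are uncertain. Of these 8, Rpl11, Rpl5, Ep300 and Crebbp also passed within mutant cells, where 6.93% of tested genes did. The averaged calls held in all 12 fits without 1 library for 6 of the 8, in 10 for Prmt5 and in 2 for Ppp1r13b.

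**Figure D4:**
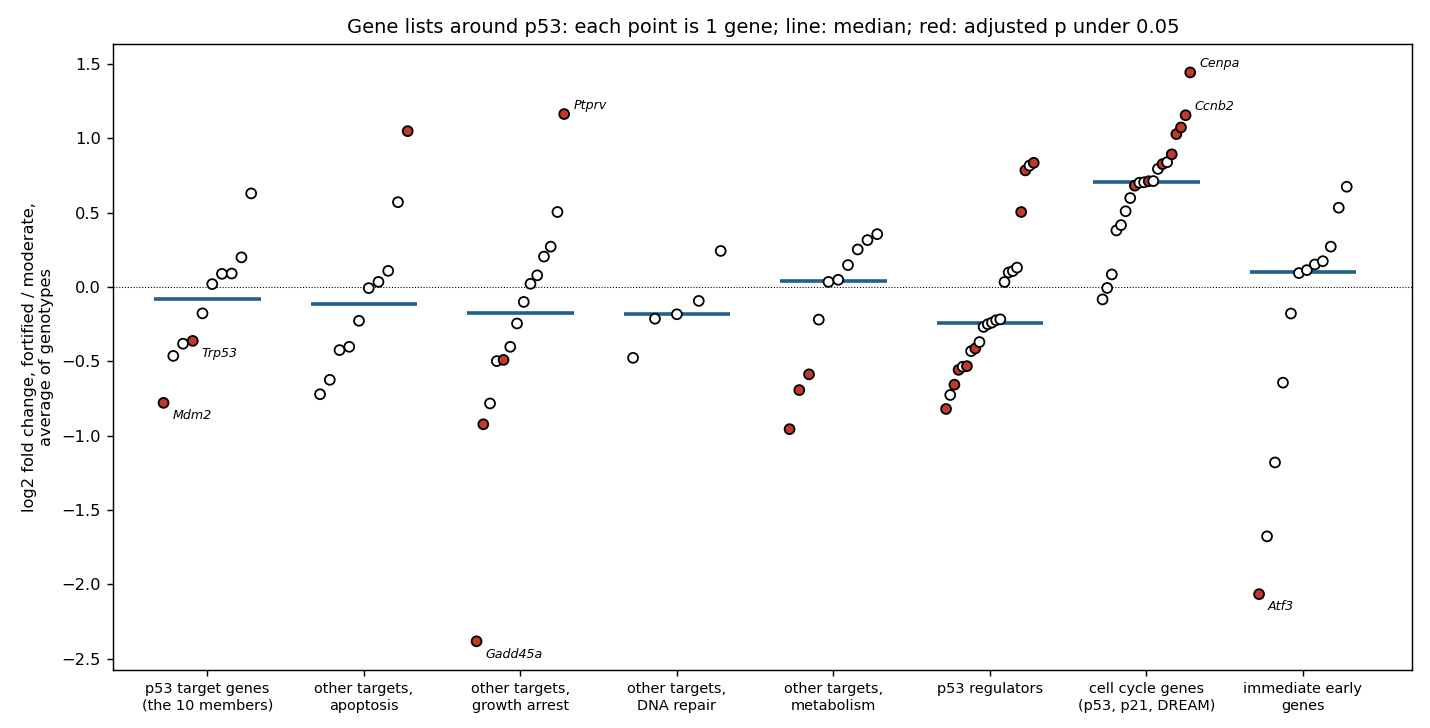
Log2 fold changes (vertical axis, edgeR, fortified against moderate, average of genotypes), 1 point per gene, for the 10 genes and 7 related lists; lines are list medians and red points passed the adjusted threshold of 0.05. The cell cycle list has a median of 0.71, and the lowest points are Gadd45a (-2.38) and Atf3 (-2.07).

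The reverse side of p53 activity is repression: p21 lets the DREAM complex silence genes of mitosis and DNA replication. Of 20 such cell cycle genes 18 were higher in fortified cells averaged over genotypes, 8 of them past the test (Aurkb, Bub1b, Ccnb2, Cdc20, Cdc25c, Cdk1, Cenpa and Plk1) and 0 lower, with a median of 0.71. Of all tested genes 17.8% passed in that comparison, 8.9% as higher. With log2(TPM + 1) the median was 0.52 and 3 of the 20 passed by limma, beside 3741 of the 15186 tested genes. In mutant cells 4 passed (Cdk1, Cenpa, Cdc25c and Ccnb2), beside 6.93% of tested genes, and the median was 1.12. In wild type cells 0 of the 20 passed (0.0263% of tested genes), and the median was 0.31. For the interaction the median was 0.87, with 0 of the 20 past the test (0% of tested genes). Averaged over genotypes, Ccnb2, Cdk1 and Cenpa passed in all 12 fits without 1 library and the other 5 in 2 to 7. Cdk1, the kinase that drives mitosis, was 33.95 ± 2.03 CPM (SD, n = 3) in moderate mutant and 114 ± 37.1 in fortified mutant cells (log2 1.75, SE 0.32, adjusted p = 0.0176, edgeR). In wild type cells it was 71.6 ± 36.6 CPM at moderate and 88.6 ± 17.6 at fortified folic acid. Between moderate mutant and wild type cells all 20 were negative (median -0.73), none past the test; leaving out moderate wild type 1 gave a median of -0.23 with 3 positive.

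Of 12 immediate early genes, which respond quickly to handling and serum, 1 passed: Atf3, a stress-induced transcription factor that p53 also raises, fell by 2.07 (SE 0.32, adjusted p = 0.00508, edgeR) averaged over genotypes and by 2.13 in mutant cells (adjusted p = 0.0263). Without the 3 libraries that stood apart, the 25 averaged calls on listed genes and the 10 in mutant cells kept their direction. That fit had fortified mutant 1 alone in its group. The next by p were Fosl1 (-2.27 between fortified and moderate mutant cells, adjusted p = 0.113), Fosb (1.93 between fortified genotypes, 0.939) and Egr2 (1.17 between moderate genotypes, 0.624).

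**Figure D5:**
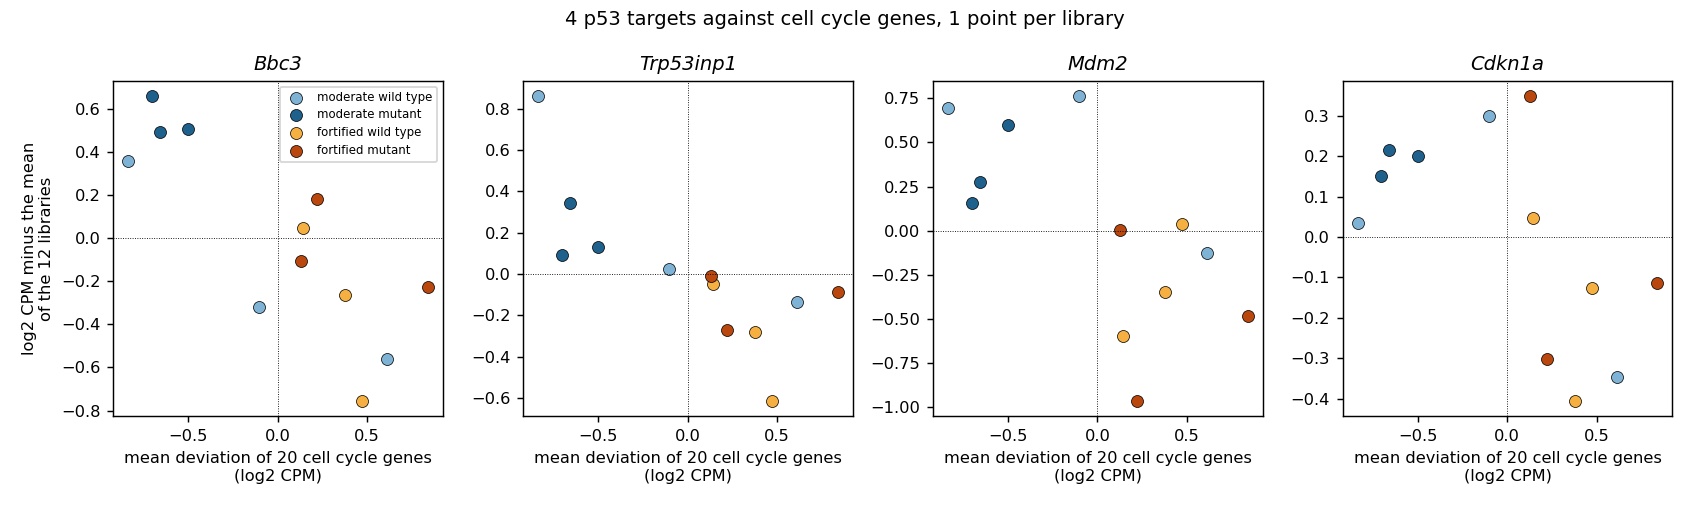
Log2 CPM minus the mean of the 12 libraries for Bbc3, Trp53inp1, Mdm2 and Cdkn1a (vertical axes) against the mean deviation of the 20 cell cycle genes (horizontal axes), 1 point per library, coloured by group. The 3 moderate mutant libraries and moderate wild type 3 lie at upper left in all 4 panels, and moderate wild type 1 lies at lower right.

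Library by library, the mean of the 10 genes was low where the cell cycle genes were high (r = -0.73, rho = -0.77 over 12 libraries, -0.74 within groups and -0.64 without the 2 libraries farthest from the median). Bbc3 had the closest such relation (r = -0.82, rho = -0.76, -0.81 within groups), followed by Trp53inp1 (r = -0.76, rho = -0.87, -0.75 within groups). For Trp53 (r = -0.71) and Mdm2 (r = -0.65) the correlation within groups was smaller, -0.31 and -0.36. Cdkn1a (r = -0.60) and Phlda3 (r = -0.47) stood at -0.46 and -0.78 within groups. Ccng1 (0.10) and Bax (0.18) had small values across the 12 libraries but -0.41 and -0.30 within groups, while Btg2 (0.16) stood at 0.36 within groups. Sesn1 was positive (0.43) but -0.07 within groups. Moderate wild type 3 had the highest mean of the 10 genes (0.29) and the lowest cell cycle score (-0.835), and moderate wild type 1 had -0.20 and 0.61. The highest cell cycle score was that of fortified mutant 3 (0.841), where the mean of the 10 genes was -0.06. Moderate wild type 1 also had the highest neuron score of the 12 libraries (1.57), and the part of cell makeup in these relations was not tested.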

How the data were processed

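Expected (estimated) counts and TPM per gene were deposited by the authors in tables named for salmon; the submitters' processing notes name mm10, and its version and the annotation were not given in the sources used here. Columns were assigned by the column number in each sample's description. Members and gene lists were chosen with earlier results of these data known. The deposited estimated counts were rounded to whole numbers. The filter was filterByExpr with its defaults (at least 10 counts, at least 15 in total) and removed 9093 genes. TMM factors ran from 0.91 to 1.08, log2 CPM used a prior count of 2, and the common biological coefficient of variation was 0.332. All 12 libraries entered 1 edgeR 4.0.16 quasi-likelihood model in R 4.3.3 with a mean per group, tested on simulated data; adjusted p-values (Benjamini-Hochberg, over 15186 genes) had a threshold of 0.05. Named were all 10 members, every list gene past the threshold and up to 4 genes per list with the smallest p between groups, and the 5 patterns most like Cdkn1a and the members' mean. Alternatives were DESeq2 1.42.0, limma 3.58.1 on log2(TPM + 1) and log2(TPM + 0.1) of the authors' TPM, median-of-ratios scaling, no filter, a replicate block, only the groups compared, a sex-linked covariate, leaving out the 3 libraries apart, and each library in turn. Coordinates are from GENCODE and RefSeq for mm10.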

Additional observations from a re-analysis of the deposited data

How the results depend on the processing

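Every library held at least 39339190 counts and every group 3 libraries; which of these limits the precision was not tested. For folic acid averaged over genotypes, 2 members passed, beside 2696 of all tested genes. DESeq2 gave 4 members beside 3942 genes. Limma on log2(TPM + 1) and log2(TPM + 0.1) gave 5 members each, beside 3741 and 3743 genes. The fits with no filter or with the sex-linked covariate gave 1 member each (Mdm2), beside 2378 and 2743 genes. Leaving out 1 library gave 0 to 4 members and 1411 to 4025 genes. Within mutant cells members called were 3 with either TPM scale and 1 with only the groups compared, against 0. Genes called there were 1053, against 2395 by DESeq2, 2814 and 2805 with log2(TPM + 1) and log2(TPM + 0.1), 2122 with only the groups compared, and 0 (without moderate mutant 1 or 2) to 2073 (without moderate wild type 1) on leaving out 1 library. Within wild type cells 4 genes passed, against 1204 by DESeq2, 1 and 13 on the TPM scales, 80 without filter, 0 with only the groups compared, 11 with the covariate and 1298 without the 3 libraries apart (1 member); leaving out 1 library gave 1 to 1012 genes and 0 to 1 member, Mdm2 without moderate wild type 1 (-1.004, adjusted p = 0.0482). DESeq2 called 51 genes between moderate genotypes, 6 between fortified genotypes, 19 for their average and 8 for the interaction, and the covariate gave 1 between moderate genotypes, all against 0. For these 4 comparisons, leaving out 1 library gave 0 to 0 genes and members. Same-numbered libraries of different groups had a median correlation of deviations of 0.00, and 4 of 18 exceeded 0.1. Different-numbered ones had 0.02, and 9 of 36 did. The numbers were therefore not used as pairs, though with 3 libraries per group such values cannot settle whether same-numbered libraries share a batch. With numbers as a block, 1 member (Mdm2) and 2309 genes passed for folic acid averaged over genotypes. In that fit 65 genes passed in wild type cells (4 without the block) and 559 in mutant cells (1053 without it). Of the 70 member differences over 7 comparisons, 35 kept their sign in every alternative and 35 did not, the largest of these being 0.545 (Ccng1 between folic acid levels in mutant cells). Signs changed, among others and between genotypes unless said, for Mdm2 at moderate folic acid (0.080 on both TPM scales, 0.148 with the covariate, -0.370 to 0.018 on leaving out 1 library), Trp53 at fortified folic acid (0.067 with the covariate, -0.095 to 0.061), Mdm2 there (0.015 with the covariate, -0.442 to 0.055), Cdkn1a there (-0.167 without the 3 libraries apart, -0.069 to 0.285), Fosb there (-0.075 without the 3 libraries apart), Rrm2b at moderate folic acid (-0.430 to 0.023) and Bax between folic acid levels in mutant cells (-0.006 on log2(TPM + 1), -0.006 on log2(TPM + 0.1) and -0.006 without the 3 libraries apart). Of 25 list genes past the threshold for folic acid averaged over genotypes, 13 passed in all 12 fits without 1 library, and none changed sign; of 10 in mutant cells 0 did. The cause of these shifts was not tested.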
